A study of Mus musculus with 12 samples.

Results

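Broad domains of H3K9me3 were examined in mouse liver. A broad domain was defined as a peak of the deposited lists that lay on an autosome and was 20000 bp or wider. The 6 lists of peaks called over input held 4816 such domains among 1509802 autosomal peaks and 1667636 peaks on all chromosomes. The domains were chosen by their listed width alone, so their numbers and widths within a list are descriptions. The narrowest domain of a list was between 20000 and 20023 bp wide, and the widest autosomal peak below the limit was between 19958 and 19998 bp.

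The study inactivated Dio2, which encodes the D2 deiodinase that makes the active thyroid hormone T3, and asked whether H3K9me3 differed in the liver as a result. Alb-D2KO mice, labelled C57BL/6 and given as C57BL/6J in the study's methods, carried floxed Dio2 alleles and a Cre recombinase driven by the albumin promoter, which is active in hepatocytes, and controls carried the Cre. H3K9me3 and input libraries were made from control and Alb-D2KO liver at post-natal day 1 (P1), at post-natal day 5 (P5) and from adults of an age the labels do not give, with 1 library per combination, each P1 or P5 sample being a pool of 3 livers and each adult sample a single liver. With 1 library per group there was no spread between replicates, no difference between groups could be tested, and depth was unknown because the lists give no read counts. Since whole liver was used, fewer cells carrying a domain and less H3K9me3 per cell cannot be told apart, and livers of newborns also hold many blood-forming cells. Peak lists do not show the tissue's transcripts: none of 18 hepatocyte marker genes (Alb, Apoa1 and Hnf4a among them), and none of the autosomal marker genes fixed for fetal liver, erythroid, Kupffer, endothelial, stellate and other lineages, had a single base in a domain in any list.

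H3K9me3 is the histone mark of constitutive heterochromatin. It is bound by HP1 proteins and written by enzymes such as SETDB1, which KRAB zinc finger proteins recruit to DNA through the co-repressor KAP1. Genes for KRAB zinc finger proteins are themselves found in large clusters of similar copies that carry broad H3K9me3 in many cell types, and clusters of olfactory and vomeronasal receptor genes, which serve smell and pheromone detection and are silent in liver, are also known as repressed blocks.

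The sequences beneath the domains were taken from the reference (RefSeq, GRCm38.p6, the build of the lists, mm10), and a few are printed because the most constant domains lay on tandem copies. The first is part of the longest coding exon of Zfp534, a zinc finger gene of the chromosome 4 cluster (chr4:147675236-147675421, minus strand). It lay inside a domain in all 6 lists, of 93.1, 213.958 and 69.5 kb in control and 130, 86.9 and 110 kb in Alb-D2KO at P1, P5 and in the adult. Capitals mark the 18-base run GGAGAGAAACCTTACAAA, which was the 18-base sequence shared by the most genes among the 27 zinc finger genes that lay at least 50% in domains of all 6 lists. It was searched in the coding orientation of each exon, and on both strands of loci and tiles.
Zfp534 exon: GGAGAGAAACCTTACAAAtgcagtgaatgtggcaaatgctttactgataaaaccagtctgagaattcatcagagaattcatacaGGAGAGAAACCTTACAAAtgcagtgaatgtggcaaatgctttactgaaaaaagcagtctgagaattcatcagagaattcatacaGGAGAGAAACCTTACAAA
Of those 27 genes 19 held the run in their longest coding exon, in 121 copies, and 52 (12.4%) of all 418 autosomal zinc finger genes did, the 27 included. Since the run was picked as the one most shared by the 27, its frequency among them follows from that choice. Neighbouring copies were 84 bases apart, the length of a zinc finger with its linker, in 76 of 102 spacings, and a multiple of 84 in all 102. The Zfp534 exon held 12 copies, of which 3 are shown.

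One pair of promoters in the same cluster was alike. The 250 bases before the start of Zfp980 (chr4:145670447-145670696, plus strand) and of Zfp979 (chr4:147642509-147642758, minus strand) were the same at 208 positions (83.2%), and capitals mark the positions that differ. The other 77 pairs among 13 promoters of named loci in this cluster, compared position by position without gaps, were the same at 18.4 to 42.4% of bases. Both lay wholly inside a domain in all 6 lists.
Zfp980 promoter: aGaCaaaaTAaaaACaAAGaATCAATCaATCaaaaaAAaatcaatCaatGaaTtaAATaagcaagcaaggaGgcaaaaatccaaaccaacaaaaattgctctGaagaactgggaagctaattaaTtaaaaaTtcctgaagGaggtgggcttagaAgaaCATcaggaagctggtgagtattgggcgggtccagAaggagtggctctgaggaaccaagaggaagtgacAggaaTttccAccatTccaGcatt
Zfp979 promoter: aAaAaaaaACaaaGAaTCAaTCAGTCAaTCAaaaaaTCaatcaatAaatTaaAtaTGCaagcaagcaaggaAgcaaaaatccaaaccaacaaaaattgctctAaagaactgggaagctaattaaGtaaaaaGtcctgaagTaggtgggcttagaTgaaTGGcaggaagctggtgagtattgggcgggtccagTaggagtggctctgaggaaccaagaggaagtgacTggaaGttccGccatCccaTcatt
The promoter of Tdpoz4, one of a family of genes with TD and POZ domains that is expressed in early embryos, is printed for contrast, because it lay in a domain in both neonatal Alb-D2KO lists (chr3:93796148-93796397, plus strand). The domain around it was 24.4 kb wide at P1 and 24.9 kb at P5. No peak of any width covered the promoter in the control lists or in the adult Alb-D2KO list. The ground around it was not free of peaks in the neonatal controls. Every Alb-D2KO P1 domain, this one included, was covered over at least 50% by peaks in control P1 and in control P5. Of the Tdpoz4 gene itself, peaks covered 0% in control P1, 34.7% in control P5 and 12.9% in control adult.
Tdpoz4 promoter: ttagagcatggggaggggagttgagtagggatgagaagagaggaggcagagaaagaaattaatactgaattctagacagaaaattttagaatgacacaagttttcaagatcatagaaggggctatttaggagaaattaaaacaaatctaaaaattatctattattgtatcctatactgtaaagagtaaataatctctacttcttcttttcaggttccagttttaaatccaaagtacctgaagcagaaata

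Domains were rare at every age, and their width beside other peaks was set by the rule that chose them. At P1, 829 domains were listed in control (0.335% of autosomal peaks, 95% Wilson interval 0.313 to 0.358) and 995 in Alb-D2KO (0.423%, 0.398 to 0.450). At P5 there were 937 in control (0.391%) and 999 in Alb-D2KO (0.414%). The adult lists had 516 in control (0.187%) and 540 in Alb-D2KO (0.200%). Intervals cover counting error only, and neighbouring domains of a cluster are not independent. The domains spanned 27.6 Mb in control and 33.7 Mb in Alb-D2KO at P1, 29.9 and 31.4 Mb at P5, and 17.7 and 18.7 Mb in adults. This was between 4.46 and 7.14% of all bases covered by autosomal peaks. The median width ran from 25.3 to 27.2 kb over the 6 lists, while the median of all autosomal peaks ran from 807 to 1055 bp.

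Between genotypes the number differed most at P1. Alb-D2KO had 1.20 times the number of domains of control at P1, 1.07 times at P5 and 1.05 times in the adult. By total length the ratios were 1.22, 1.05 and 1.06, whereas for all autosomal peaks they were 1.02, 1.02 and 0.966. The adult ratio of numbers turned to 0.990 when the width limit was 30 kb. Very wide domains did not follow this order: 100 kb or more was reached by 18 in control and 21 in Alb-D2KO at P1, by 20 and 12 at P5, and by 11 and 11 in adults. None of these differences had a replicate check.

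Between ages the count depended on how weak a peak was admitted. Adult control had 0.622 times the domains of control P1 and 0.551 times those of control P5, and adult Alb-D2KO had 0.543 and 0.541 times those of the same genotype at P1 and P5. The listed scores of the domains also differed between ages. A listed −log10 p above 2, averaged over the peak, was reached by 50.7% of domains in control P1, 46.2% in Alb-D2KO P1, 39.8% in control P5 and 38.5% in Alb-D2KO P5, but by 97.3% in control adult and 95.6% in Alb-D2KO adult. Over all autosomal peaks the shares were 6.81, 6.66, 5.29, 5.67, 12.5 and 12.3% in the same order. Higher listed scores in the adult lists were thus not particular to the domains. When only peaks above that limit were admitted, the numbers were 420 and 460 at P1, then 373 and 385 at P5, and 502 and 516 in adults, in control and Alb-D2KO. The adult number was then 1.20 and 1.35 times that of P1 and P5 in control, and 1.12 and 1.34 times in Alb-D2KO, so that the direction of the age difference reversed. Few domains were strong by the listed q-value: between 15 and 32 of a list had a q below 0.05. Among all autosomal peaks such values were rarer still. In control P1 they were listed for 15 of 829 domains and for 510 of 247677 autosomal peaks. In control adult they were listed for 30 of 516 domains and for 562 of 275607 autosomal peaks. The median listed fold over input of the domains was between 2.03 and 2.08 in the neonatal lists and 2.33 and 2.31 in the adult lists, against 1.77 to 1.84 for all autosomal peaks.

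**Figure D1:**
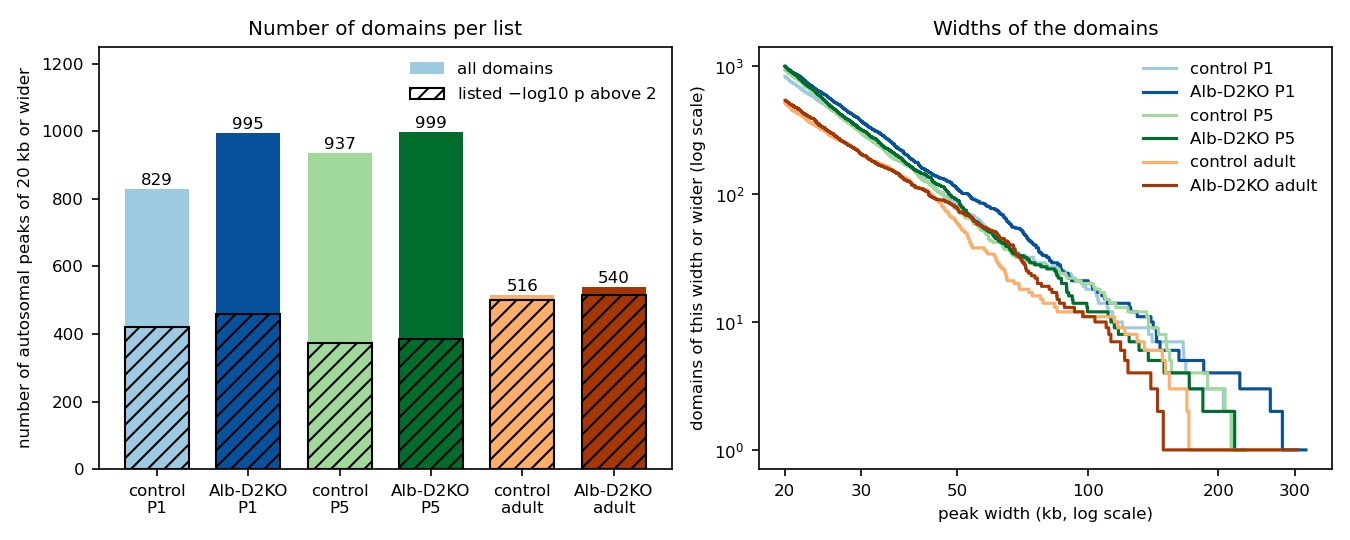
Number of autosomal H3K9me3 domains of 20 kb or wider in each of the 6 lists (left, bars, with the part above a listed −log10 p of 2 hatched) and number of domains at or above each width (right, log axes, width in kb), for control and Alb-D2KO at P1, P5 and adult, 1 library each. The 4 neonatal lists hold 829 to 999 domains and the adult lists 516 and 540, but the hatched parts of the neonatal lists (373 to 460) lie below those of the adult lists (502 and 516).

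Whether a domain of one list was also a domain in another was asked by its state there. A domain was kept when a single peak that was itself 20 kb or wider covered at least 50% of it, narrowed when a single narrower peak did, split when several peaks did so together, partly covered when less than 50% was covered, and lost when no base was. As background, at least 50% of bases was covered by peaks of any width in 16.7% of all autosomal 20 kb tiles in control P1, 17.4% in Alb-D2KO P1, 17.6% in control P5, 18.2% in Alb-D2KO P5, 8.85% in control adult and 8.20% in Alb-D2KO adult. By domains alone the share of tiles was 1.14, 1.39, 1.25, 1.29, 0.733 and 0.776% in the same order.

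Domains of one genotype were almost never lost in the other at the same age, but they were often cut into several peaks. Of the Alb-D2KO P1 domains, 35.6% were kept in control P1 (95% Wilson interval 32.7 to 38.6), 15.2% were narrowed and 49.2% split, and 0 were lost. In the other direction 49.5% of control P1 domains were kept in Alb-D2KO P1 (46.1 to 52.9), 17.1% narrowed and 33.4% split. Control peaks covered a median of 86.4% of the bases of the 641 Alb-D2KO P1 domains that were not kept, and 90.6% over all 995. At P5 the kept shares were closer, at 38.2% (35.3 to 41.3) of Alb-D2KO domains in control and 40.8% (37.7 to 43.9) of control domains in Alb-D2KO. In the adult 60.7% (56.6 to 64.8) of Alb-D2KO domains were kept in control and 64.5% (60.3 to 68.5) of control domains in Alb-D2KO, and 1 domain was lost in each direction. Peaks from 10 to 20 kb, just under the limit, were covered over at least 50% in the other genotype at the same age in 94.5 to 98.4% of cases, close to the 95.9 to 100% of the domains.

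Between P1 and P5 of the same genotype the states were much like those between genotypes. Of control P1 domains 41.9% (38.5 to 45.2) were kept at P5, and of Alb-D2KO P1 domains 38.8% (35.8 to 41.9). No domain was lost between P1 and P5 in either genotype. From neonatal to adult liver, fewer were kept: 18.9% from control P1 (16.4 to 21.7), 18.7% from control P5 (16.3 to 21.3), 15.5% from Alb-D2KO P1 (13.4 to 17.9) and 18.9% from Alb-D2KO P5 (16.6 to 21.5). Most of the others were split (36.5 to 40.7%) or partly covered (35.2 to 38.8%). Lost outright were 7 of 829 control P1 domains and 4 of 937 control P5 domains, and 0 of the 995 and 999 in Alb-D2KO. In reverse, 29.5 to 36.4% of adult domains were kept in a neonatal list of their genotype, and 9 to 12 per comparison were lost there. With a −log10 p limit of 2 the kept shares from neonatal to adult were between 31.7 and 45.7%.

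**Figure D2:**
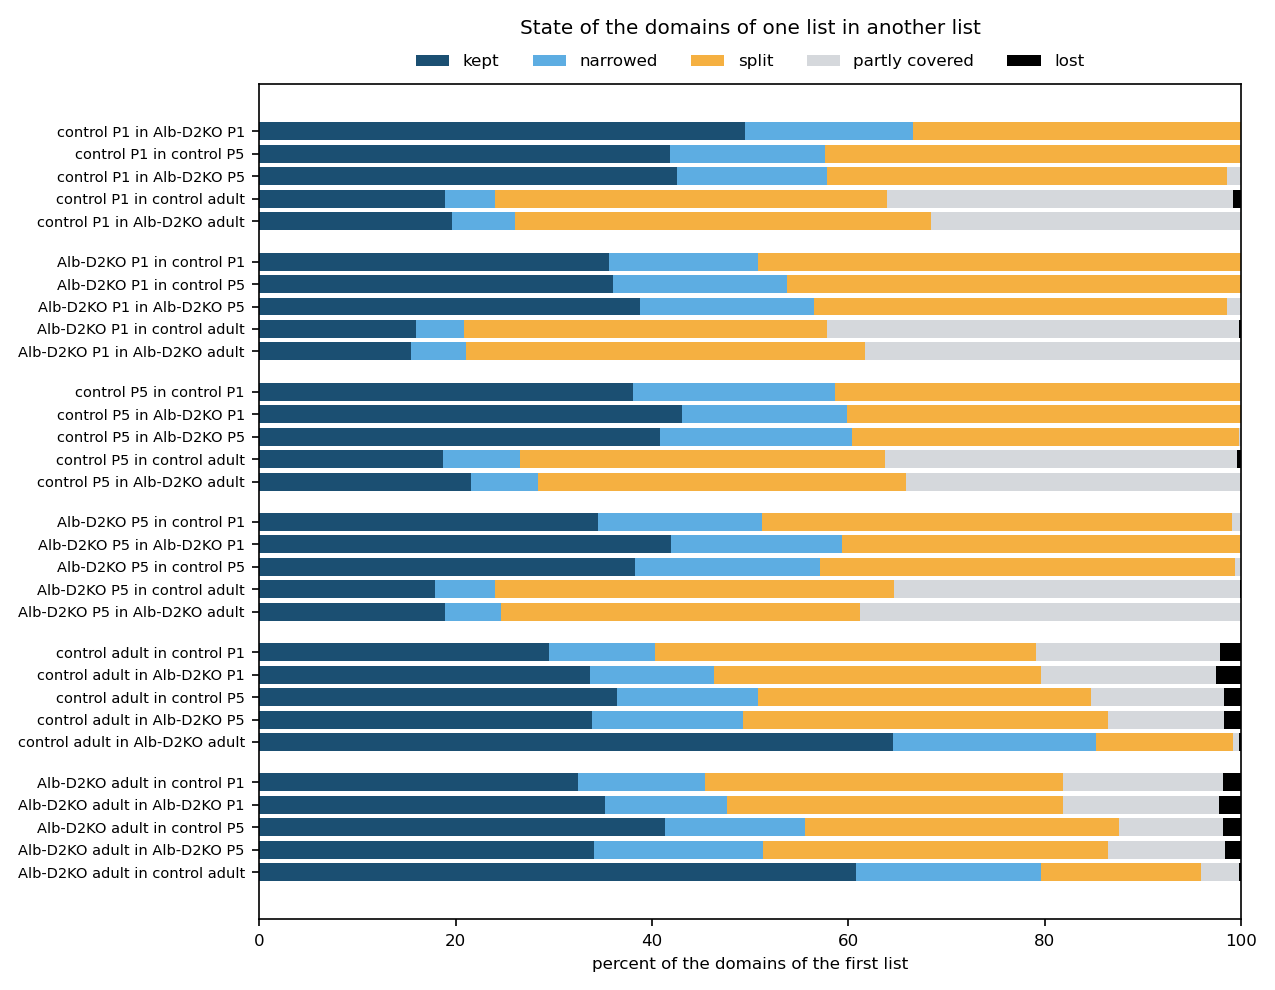
State of the domains of each list in another list, as stacked shares (percent of domains) of kept, narrowed, split, partly covered and lost, for all 30 ordered pairs of lists. Kept makes up 35.6 to 64.5% between genotypes at the same age and 15.5 to 18.9% from neonatal to adult within a genotype, and lost is at most a thin end of a bar.

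Domains that overlapped were joined across lists to 2059 loci spanning 79.6 Mb. A domain was present in only 1 list at 1187 loci and in all 6 at 78 loci, which spanned 10.4 Mb. All 4 neonatal lists had a domain at 196 loci and both adult lists at 276. Of the 78 loci in all 6 lists, 25 (32.1%) overlapped a zinc finger gene, while over all 2059 loci 82 (3.98%) did. No protein-coding gene was overlapped by 25 of the 78 loci, by 1445 of all 2059 loci and by 62092 of 123129 autosomal 20 kb tiles. The 78 loci were wider on average than all 2059, a wider locus can overlap more genes, and these shares were not adjusted for span. The same limit holds for the widest of the 78, ranked by the width of the widest domain in the list where it was narrowest. Of the first 8, 5 lay in the chromosome 4 cluster between 145 and 150 Mb, and 7 held zinc finger genes.

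The widest of these, at chr4:147102540-147406323, held Zfp991, Zfp978 and Zfp988, whose names mark them as zinc finger genes. At P1, P5 and adult age its widest domain was 218, 156 and 130 kb in control and 185, 218 and 304 kb in Alb-D2KO. The 304 kb domain of the adult Alb-D2KO list was the widest of that list, and the same ground was in 5 domains in control adult, so the locus was at least 98.2% covered in every list although its widest peak varied. At chr4:147441705-147846875, which holds Zfp984, Zfp985, Zfp979 and Zfp534, widths were 138, 214 and 115 kb in control and 144, 138 and 149 kb in Alb-D2KO. The neighbouring locus chr4:145474769-145745194, with Gm13212, Zfp980 and Zfp990, had 172, 104 and 149 kb in control and 162, 171 and 104 kb in Alb-D2KO. No genotype was the wider at all 3 ages at any of these 3 loci.

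At the other 5 of these loci the widest peak also varied between lists. At chr4:146049995-146239156 (Zfp600, Zfp987) the widest domain measured 114, 189 and 98.0 kb in control and 100, 115 and 140 kb in Alb-D2KO. At chr4:146425285-146579815 (Zfp981, Zfp992) it measured 75.0, 154 and 69.3 kb and 69.6, 77.9 and 73.0 kb. Zfp936 on chromosome 7 (chr7:43048656-43243485) had 114, 93.7 and 84.9 kb in control and 87.9, 89.4 and 84.8 kb in Alb-D2KO. On chromosome 5, chr5:104571679-104942439 holds Zfp951 and Abcg3, a transporter gene of the ABC family, and its widest domain was 80.8, 145 and 275 kb in control and 140, 90.3 and 145 kb in Alb-D2KO. The exception to zinc fingers was chr13:12734753-13013500, with Prl2c3 and Prl2c2, genes of the prolactin family known from placenta, at 216, 137 and 122 kb in control and 144, 125 and 71.8 kb in Alb-D2KO. Control was the wider at all 3 ages at 2 of these 5 loci, that of Zfp936, by little in the adult, and that of Prl2c3 and Prl2c2, and Alb-D2KO at none.

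**Figure D3:**
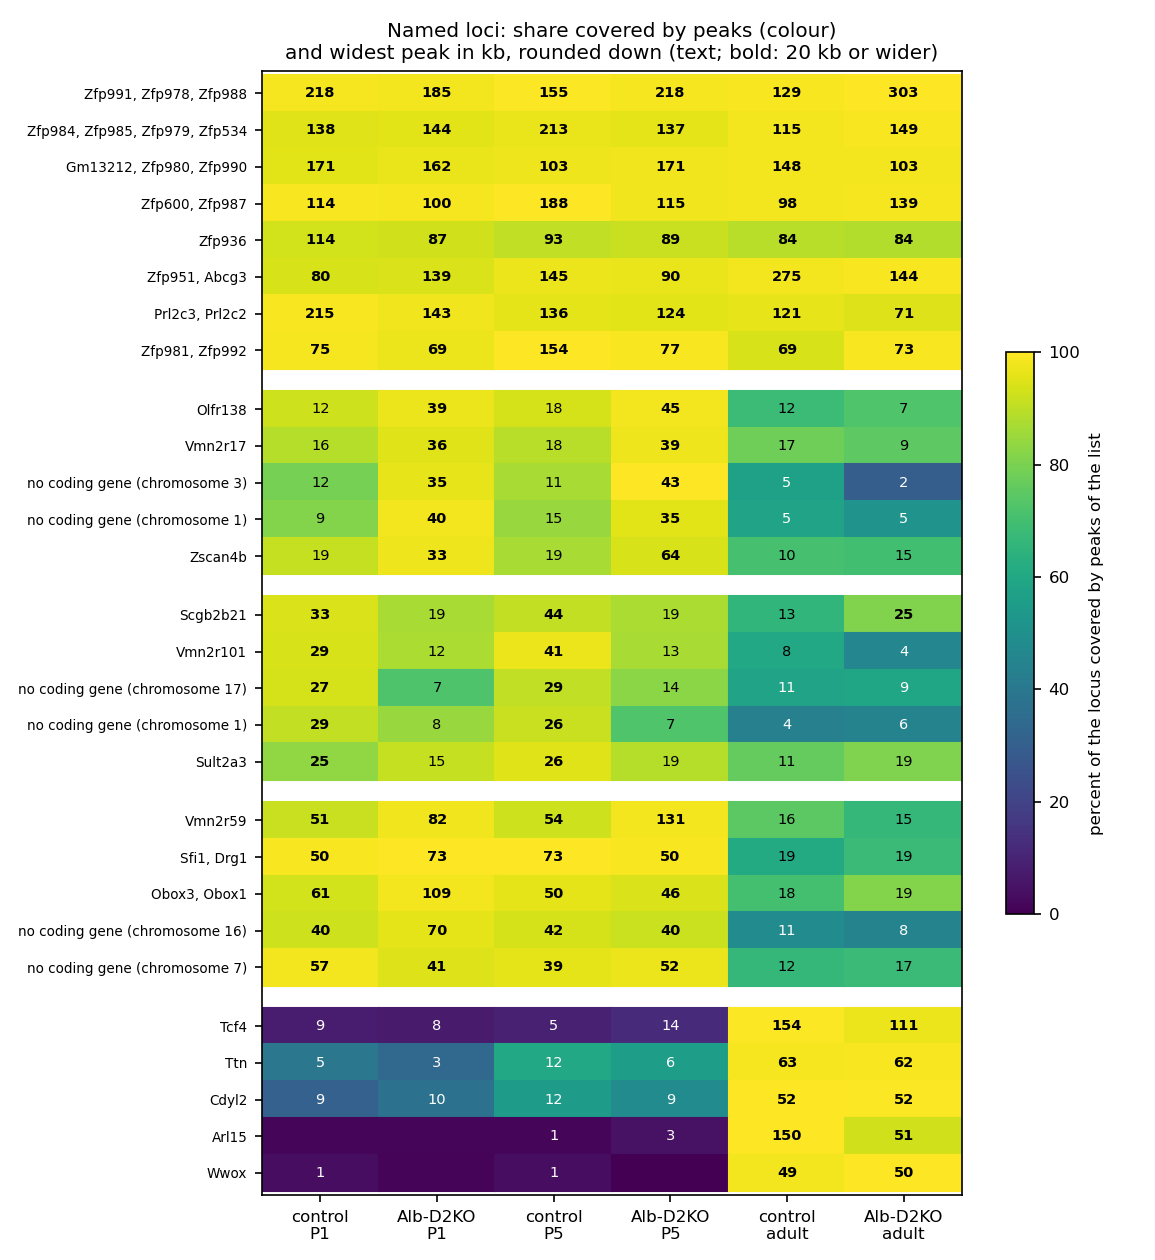
Named loci by list, with the percent of the locus covered by peaks as colour and the width of the widest peak in whole kb, rounded down, as text (bold from 20 kb), in blocks of loci with a domain in all 6 lists, in both Alb-D2KO neonatal lists, in both control neonatal lists, in neonatal lists only and in adult lists only. The loci of the first block have a peak of 69.3 kb or wider in every list, the loci that separate the genotypes are well covered in both, and Tcf4, Arl15 and Wwox are nearly uncovered in the neonatal lists.

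Alb-D2KO neonatal livers had a domain in both neonatal lists where neither control neonatal list had one at 81 loci, and the opposite pattern was seen at 35. Since the pattern chose these loci, their widths are descriptions. Control peaks still covered a median of 83.6% of the 81 loci at P1 and 85.2% at P5, and the median widest control peak was 12.6 and 13.4 kb. The 35 loci of the opposite pattern were covered over a median of 86.8 and 84.6% in Alb-D2KO. No locus of either pattern was uncovered in a neonatal list of the other genotype. A domain in all 3 Alb-D2KO lists and in no control list was found at 1 locus, and the converse at 0.

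Receptor genes and genes of early embryos were among the widest loci of these patterns. At Olfr138, an olfactory receptor gene (chr17:38218905-38266590), the widest peak was 12.1 kb in control and 39.9 kb in Alb-D2KO at P1, then 18.1 and 45.3 kb at P5, and 12.6 and 7.93 kb in adults. Peaks covered 92.4% of this locus in control and 96.98% in Alb-D2KO at P1, so the difference lay in gaps within covered ground. The vomeronasal receptor gene Vmn2r17 (chr5:109390577-109431446) had 16.2 and 36.2 kb at P1, then 18.7 and 39.8 kb at P5, and 17.6 and 9.68 kb in adults. At Zscan4b, a zinc finger gene of early embryos (chr7:10845642-10918092), it was 19.4 and 33.9 kb at P1, then 19.9 and 64.6 kb at P5, and 10.4 and 15.9 kb in adults. The control P1 and P5 peaks here stopped just short of the limit. The other 2 loci of this pattern, chr3:44799662-44843560 and chr1:110485194-110534030, overlapped no annotated gene.

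The converse loci had similar numbers. Scgb2b21, a secretoglobin gene (chr7:33499327-33577140), had a widest peak of 33.8 kb in control and 19.5 kb in Alb-D2KO at P1, then 44.1 and 19.7 kb at P5, and 13.03 and 25.5 kb in adults, so that only Alb-D2KO had a domain there in the adult. Vmn2r101 (chr17:19555376-19597969) had 29.2 and 12.3 kb at P1, then 41.4 and 13.9 kb at P5, and 8.16 and 4.29 kb in adults. Sult2a3, a sulfotransferase gene of a family that acts on steroids and bile acids in liver (chr7:14017887-14068019), had 25.9 and 15.4 kb at P1, then 26.4 and 19.1 kb at P5, and 11.8 and 19.9 kb in adults. The last 2, chr17:60283297-60328253 and chr1:109555361-109591924, held no protein-coding gene.

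At 87 loci all 4 neonatal lists had a domain and neither adult list did. Adult peaks covered a median of 55.1% of these loci in control and 54.8% in Alb-D2KO, no locus was uncovered, and the median widest adult peak was 9.04 and 7.57 kb. Vmn2r59 (chr7:41889672-42049085) had domains of 51.6 and 54.4 kb in control and 82.5 and 131 kb in Alb-D2KO at P1 and P5, and its widest adult peak was 16.9 kb in control and 15.2 kb in Alb-D2KO. At chr7:15477932-15630710, which holds Obox3 and Obox1, homeobox genes of the oocyte and early embryo, neonatal domains reached 61.3 and 50.9 kb in control and 109 and 46.1 kb in Alb-D2KO, and adult peaks 18.6 and 19.8 kb. Sfi1, which encodes a centrosomal protein, and Drg1, for a GTP-binding protein, lay at chr11:3126924-3200063, where neonatal domains were 50.5 and 73.1 kb in control and 73.1 and 50.5 kb in Alb-D2KO and adult peaks 19.1 and 19.2 kb. The adult values of the Obox and Sfi1 loci sat just under 20 kb, and 18.6 to 19.8 kb is not a clear absence. The remaining loci among the 5 widest held no protein-coding gene and lay further from the limit. Adult peaks at chr16:61134547-61255902 reached 11.5 kb in control and 8.93 kb in Alb-D2KO, and at chr7:9252807-9367539 they reached 12.2 and 17.5 kb.

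The reverse group, with a domain in both adult lists and in no neonatal list, held 128 loci. It was mixed: neonatal peaks covered a median of 52.9 to 65.8% of these loci over the 4 neonatal lists, and 4 to 7 loci per list were uncovered. The widest such locus lay in Tcf4, a transcription factor gene of the E-protein family (chr18:69421806-69579984). Over P1, P5 and adult its widest peak was 9.99, 5.36 and 154 kb in control and 8.81, 14.6 and 112 kb in Alb-D2KO, and 7.04 to 12.0% of it was covered in the neonatal lists against 99.4 and 96.97% in the adult ones. Arl15, for a small GTPase (chr13:113893892-114044810), had peaks of at most 3.02 kb in the neonatal lists, and domains of 151 kb in control adult and 51.5 kb in Alb-D2KO adult. Wwox, for an oxidoreductase with WW domains (chr8:115309468-115359543), had neonatal peaks of at most 1.70 kb and adult domains of 49.2 and 50.05 kb. Ttn, the titin gene of muscle (chr2:76711317-76778067), and Cdyl2, a chromodomain gene (chr8:116677787-116730570), were less distinct, since neonatal peaks already covered 33.2 to 59.96% and 30.6 to 54.9% of them.

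Most of the adult loci with little neonatal cover lay inside long genes. This group was chosen after the values were seen: 35 of the 128 loci were under 50% and 18 under 20% covered in every neonatal list. Of the 18, 15 lay wholly within a single protein-coding gene. These 15 loci fell in only 8 genes, of 346 to 913 kb and with a median of 387 kb. The median was 365 kb for the 30 genes around such loci of the 128. It was 313 kb for the 110 genes around such loci of all 2059. For the 7280 genes that hold a whole tile it was 65.3 kb with each gene counted once, and 224 kb counted by tile. Long host genes were thus not particular to the 18 loci, and a locus fits only in a gene longer than itself. The other 3 of the 18 loci reached past the end of their gene. The shares inside it were 86.4% in Wwox, 92.8% in Ank3 and 71.97% in Helb, which is only 29.4 kb long. Among the 128 adult loci the share within 1 gene was 32.0%, among all 2059 loci 8.31%, among the 78 constant loci 7.69%, and among all autosomal 20 kb tiles 29.4%. Exons took a median of 0.559% of the bases of the 18 loci, and repeats masked in the reference took 19.6%, against 49.8% in the constant loci, 53.1% in the 128 adult loci and 29.9% in all tiles. Of 1133 reference stretches of 100 bases from these loci, 0.618% aligned back with mapping quality 0, that is, to several places equally well.

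Over the whole length of these genes, cover is a description, because the loci that chose them are part of it. Peaks of any width covered 1.56% of Wwox at P1 and 3.09% at P5 in control, 1.65 and 4.14% in Alb-D2KO, and 59.3 and 56.6% in the control and Alb-D2KO adult, where 7 and 9 domains lay in it. Arl15 was covered over 0.673 to 2.02% in the neonatal lists and 82.0 and 70.3% in the adult ones. Helb, which encodes a DNA helicase, had 0 to 1.28% and then 90.5 and 91.0%. Camkmt, for a calmodulin methyltransferase, had 1.91 to 6.88% and then 63.0 and 61.9%, and Tiam1, for a guanine nucleotide exchange factor of RAC, 1.37 to 2.08% and then 61.1 and 58.9%. Tenm3, a teneurin gene of neurons, was covered over 8.01 to 9.50% and then 50.8 and 48.1%, and Tcf4 over 3.62 to 6.34% and then 51.9 and 50.2%. Smyd3, for a methyltransferase, Slc39a11, for a zinc transporter, and Ank3, for an ankyrin, were covered over 26.9 and 31.7%, 36.4 and 32.6%, and 12.1 and 11.6% in the adult lists, and at most 3.04% in the neonatal ones. Outside the 18 loci, the rest of Wwox (679 kb) was covered over 2.02 to 5.40% in the neonatal lists and 45.6 and 42.5% in the control and Alb-D2KO adult. The rest of Tiam1 had 1.37 to 2.25% and then 58.3 and 55.7%, while that of Ank3 had 1.48 to 2.79% and then only 5.10 and 4.67%. Of all 953 genes of 200 kb or more, 15 to 25 held a domain base in a neonatal list and 42 and 34 in the adult lists, and the median cover by peaks was 3.49 to 4.80% and 7.09 and 6.78%.

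**Figure D4:**
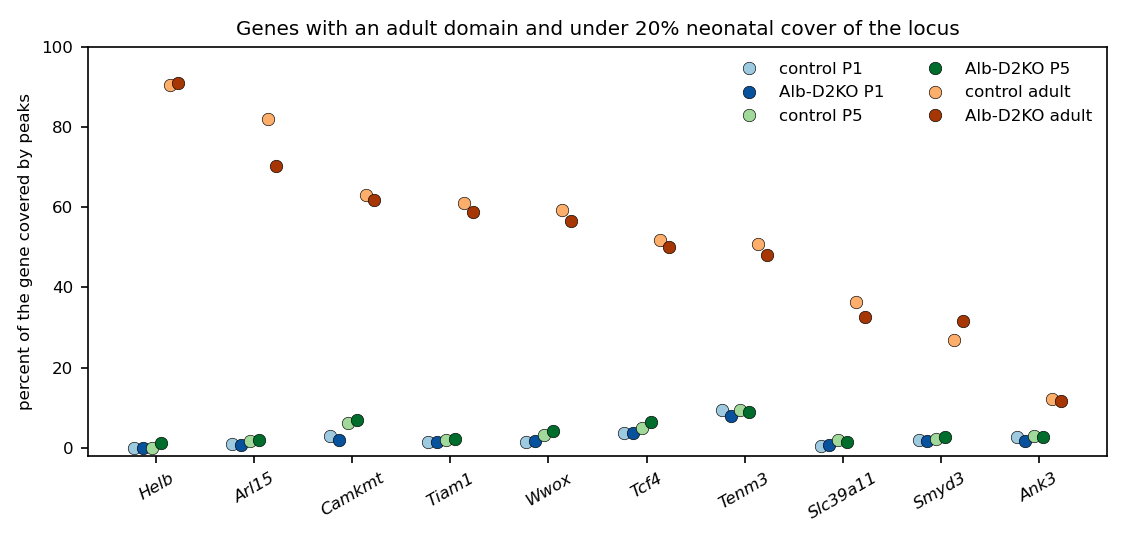
Percent of the length of each gene covered by H3K9me3 peaks of any width in the 6 lists, for the genes that hold the 18 adult loci with under 20% neonatal cover. Neonatal points lie at 9.50% or less, and adult points of Arl15 and Helb reach 82.0% and 91.0%.

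Genes were counted as inside domains when at least 50% of their length was. The background over all 20807 autosomal protein-coding genes was 1.41% in control P1, 1.48% in Alb-D2KO P1, 1.25% in control P5, 1.17% in Alb-D2KO P5, 0.673% in control adult and 0.807% in Alb-D2KO adult. Zinc finger genes were above this at all ages and highest in the adult. Of the 418 on autosomes, 10.05% were inside domains in control and 9.09% in Alb-D2KO at P1, then 11.0 and 10.8% at P5, and 16.99 and 18.4% in adults. In all, 86 were inside a domain in at least 1 list and 27 in all 6, of which 15 lay on chromosome 4. Inside domains in both adult lists and in no neonatal list were 18, among them Zfp120, Zfp345, Zfp329, Zfp420, Zfp382, Zfp709, Zfp560, Zfp820 and Zfp947, and the converse held for 0. The same counts over all 20807 protein-coding genes are not given here, so these have no background. A gene not inside a domain can still lie in narrower or split peaks, and neonatal cover of the 18 by such peaks is not given here. By domains, 6.39% of control P1 and 4.12% of Alb-D2KO P1 domains overlapped a zinc finger gene, 5.55 and 4.80% at P5 and 14.9 and 14.6% in adults, against 0.807% of tiles.

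Vomeronasal receptor genes were the neonatal counterpart. Of 329, 28.9% were inside domains in control and 31.0% in Alb-D2KO at P1, then 20.7 and 17.9% at P5, and 1.82 and 3.34% in adults, and no receptor gene was inside in all 6 lists. With the −log10 p limit of 2 the neonatal shares were 17.6, 21.9, 10.3 and 7.599% in the order control P1, Alb-D2KO P1, control P5 and Alb-D2KO P5, still above the adult ones. The families behaved differently at P5. Of 121 Vmn2r genes, 40 and 45 were inside domains in control and Alb-D2KO at P1, then 33 and 45 at P5, and 2 and 1 in adults. Of 208 Vmn1r genes the counts were 55 and 57 at P1 but 35 and 14 at P5, and 4 and 10 in adults. Outside domains the mark was still there in part, since the median Vmn2r gene was covered by peaks over 86.1% in control P1 and 89.3% in Alb-D2KO P1, and over 50.6 and 43.01% in the control and Alb-D2KO adult. The median Vmn1r gene was covered over 69.5 and 70.03% at P1 and 20.98 and 38.6% in adults.

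Chromosome 7 from 20 to 25 Mb holds 65 vomeronasal receptor genes, of which 38 and 45 were inside domains in control and Alb-D2KO at P1, then 26 and 7 at P5, and 1 and 10 in adults. Domains there spanned 2351 kb in control and 2637 kb in Alb-D2KO at P1, then 1604 and 279 kb at P5, and 43.0 and 783 kb in adults. All peaks spanned 3739, 3507 and 809 kb in control and 3764, 2819 and 3203 kb in Alb-D2KO, and the number of peaks was 312, 436 and 607 in control and 268, 830 and 726 in Alb-D2KO. The adult control list was therefore the one with little cover, and the Alb-D2KO P5 list the one with many short peaks in place of domains. A domain of 281 kb at chr7:22450644-22731638, with Vmn1r152 and unnamed gene models, was the second widest of the Alb-D2KO P1 list. It was split into 9 peaks in control P1, 18 in control P5 and 48 in Alb-D2KO P5, 12.1% covered in control adult and 89.5% in Alb-D2KO adult. In this window 79.8% of 3171 reference stretches from the loci had mapping quality 0, so that most stretches of that length fit several copies equally well, and the part of this in the differences was not tested.

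Other families were small. Olfactory receptor genes (1128) were inside domains in 2.48 to 2.93% in the neonatal lists and 0.177% in both adult lists. Pseudogenes were at 3.40 to 4.17% and then 2.22 and 2.31%. Tdpoz3 and Tdpoz4, 2 of 5 Tdpoz genes, were inside domains in Alb-D2KO at P1 and P5 and in no other list, and all of Tdpoz3 was in narrower peaks in control P1. Of 7 Obox genes, 4, 3, 3 and 3 were inside in the neonatal lists and 0 and 1 in control and Alb-D2KO adult. Among genes of liver metabolism, Ugt1a1, which conjugates bilirubin, was wholly inside a domain in both P1 lists and in no later one, with 71.4 to 100% of it in peaks of any width in the later lists. Of 100 Cyp genes, for cytochrome P450 enzymes, 2, 2, 1 and 0 were inside in control P1, Alb-D2KO P1, control P5 and Alb-D2KO P5 and 1 in each adult list. Cyp3a41b had 65.3% of its length in domains in control P1 and 95.9% in Alb-D2KO P1, but 43.3 and 38.4% at P5. Cyp2c67 had 91.2% in control P5 and 27.3% in Alb-D2KO P5, but 0 and 48.6% at P1. In control and Alb-D2KO, peaks of any width covered Cyp3a41b over 87.4 and 96.4% at P1 and Cyp2c67 over 92.3 and 82.8% at P5. Sult2a4, a sulfotransferase gene and the only one of 21 Sult genes counted, had 51.3, 42.7 and 49.3% in control and 56.6, 53.03 and 1.51% in Alb-D2KO at P1, P5 and adult. In adults, peaks of any width covered 75.2% of Sult2a4 in control and 70.9% in Alb-D2KO. Of 22 Mup genes, for major urinary proteins, at most 1 was inside in any list, and the same held for 67 protocadherin genes, 26 Klr genes, for receptors of natural killer cells, and 11 Skint genes, where Skint2 was inside in Alb-D2KO P5 alone. Defa30 and Defa34, 2 of 64 defensin genes, were also inside in Alb-D2KO P5 and in no other list. Peaks of any width covered all of Defa30 in control P5 and Alb-D2KO P1, and all of Defa34 in Alb-D2KO P1. In control P5 such peaks covered 0.214% of Defa34, and 48.5% of Skint2 against 88.6% in Alb-D2KO P5. Prame and Pramel genes (11) numbered 1, 1, 2 and 1 in the neonatal lists and 0 and 1 in adults, and Prl genes (25) 2, 2, 1 and 1 and then 1 and 1. Genes for serpins, keratins, Speer and Hox proteins and the 7 imprinted genes were never inside one. Dio2 had no domain base either, and its nearest domain was between 484 and 9255 kb away. Alb, whose promoter drives the Cre, had its nearest at 1140 to 3031 kb.

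**Figure D5:**
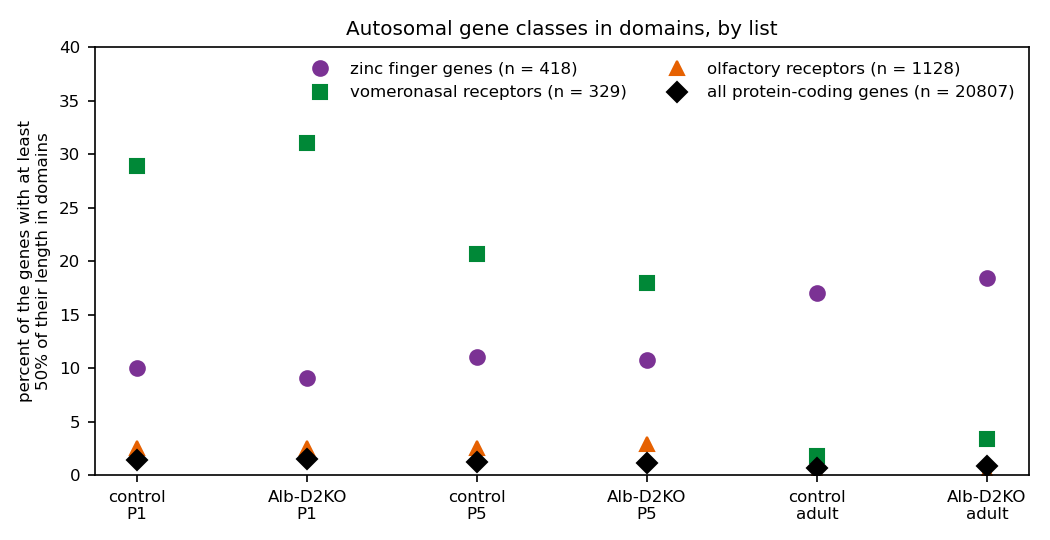
Percent of zinc finger, vomeronasal receptor and olfactory receptor genes that lie at least 50% inside domains, in the 6 lists, beside all protein-coding genes. Zinc finger genes lie at 9.09 to 11.0% in the neonatal lists and at 16.99 and 18.4% in the adult ones, and vomeronasal receptors at 17.9 to 31.0% and at 1.82 and 3.34%.

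Domains were concentrated in a few regions. Of 503 windows of 5 Mb, 137 to 179 held a domain base, and the 25 richest held 59.2 to 71.4% of a list's domain bases. Chromosome 7, with 5.91% of the autosomes, held 27.9% of domain bases in control P1 and 27.6% in Alb-D2KO P1, 21.01 and 17.1% at P5, and 9.02 and 13.6% in adults. Chromosome 13 held 7.28 to 8.88% in the neonatal lists and 17.2 and 15.3% in the adult ones. The zinc finger window of chromosome 4 from 145 to 150 Mb was stable, with 1569, 1816 and 1645 kb in control and 1683, 1751 and 1913 kb in Alb-D2KO. So was chromosome 13 from 65 to 70 Mb, with 1322 to 1491 kb over the 6 lists. Chromosome 17 from 35 to 40 Mb, with Olfr138, held between 767 and 971 kb in the neonatal lists and 21.6 and 20.9 kb in the adult ones.

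Several of the widest neonatal domains lay close together on chromosome 5, over gene models without established names. The widest of all, 318 kb at chr5:94852182-95170615 in Alb-D2KO P1, held Gm6367, Gm3183 and Gm7942. It was kept in control P1, with a widest peak of 205 kb, split at P5 in both genotypes, and split in the adult into 30 peaks in control and 27 in Alb-D2KO, with 89.0 and 91.5% of its bases still covered. In control adult the widest domain was that of Zfp951 (275 kb, chr5:104584583-104859685), followed by 171 kb at chr13:66542814-66713809 and 169 kb at chr7:42523400-42692641 over Zfp976, Zfp975 and Zfp977. Proximal chromosome 12, where the study had examined H3K9me3, held domains in every list. From 17 to 22 Mb there were 29, 16 and 19 domains in control and 29, 25 and 22 in Alb-D2KO. They spanned 839, 467 and 557 kb in control and 877, 812 and 701 kb in Alb-D2KO. Peaks of any width spanned 3015, 2675 and 2189 kb in control and 2954, 2643 and 2418 kb in Alb-D2KO. By that measure control had slightly more cover at P1 and P5, and Alb-D2KO had more in the adult. At P1 the widest domain was 59.7 kb in control against 102 kb in Alb-D2KO. It was 54.5 against 113 kb at P5, and 67.6 against 76.5 kb in adults. The control P1 value was at chr12:18247882-18307617 and the others near 20.2 Mb, where control P1 had 2 domains of 25.7 and 33.8 kb. Beside its widest domain, Alb-D2KO adult had a further one of 26.2 kb at chr12:20285624-20311860. The 67.6 kb domain of control adult ended before it, at 20281041.

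Base composition and copy number of the sequence differed between the patterns. Median GC content was 40.4% in the constant loci, 37.5% in the neonatal loci, 41.5% in the adult loci and 41.4% in all tiles. CpG dinucleotides numbered a median of 6.97, 5.09, 9.39 and 7.60 per kb in the same order, and 13.8 per kb in the 18 adult loci with under 20% neonatal cover. Of 80413 reference stretches from all loci 22.3% had mapping quality 0, against 4.93% of 95842 from the autosomes at large. The share was 43.8% in the constant loci, 20.03% in the neonatal and 11.7% in the adult loci, 12.8% in the 81 Alb-D2KO and 16.8% in the 35 control neonatal loci. How the deposited alignments treated reads with several equal positions is not given in the sources used here, and its part in any difference was not tested. The 18-base run of the zinc finger exons was present in the first 20 kb of 8.97% of constant loci, 1.15% of neonatal loci, 3.13% of adult loci and 1.55% of all loci, against 0.114% of 119802 tiles of 20 kb. The run was chosen from genes in the constant loci, so its share there is a description.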

How the data were processed

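H3K9me3 was profiled in 6 ChIP-seq libraries with 6 input libraries from mouse liver, 12 samples in all. As the methods of the study state, chromatin was cut enzymatically, and the authors aligned reads to mm10 with BWA (0.7.17) in Partek Flow, called broad peaks with MACS2 (2.1.1) at a p-value limit of 0.05 against the matching input, and annotated them with GENCODE M24. Whether the repeat sequencing runs and the additional P1 pools and adult livers mentioned there entered a list is not given in the sources used here, and each list was taken as 1 library. The deposited lists give each peak's start, end and length, its mean pileup (signal, fragment coverage), its fold over input (a linear ratio), and the −log10 of its p-value and of its q-value, the authors' own scores averaged over the peak. Pileup was not compared between lists. A further 3 deposited lists, in which Alb-D2KO was called over control H3K9me3, were not used here. No column of other samples was left aside (0).

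Positions were read as 1-based, with an uncertainty of 1 base. Peaks were intersected with GENCODE M21 genes, with 5 Mb windows and with 123129 autosomal 20 kb tiles, using Python (3.11.15), pandas (2.3.3), numpy (2.4.6) and SciPy (1.17.1), and figures were drawn with matplotlib (3.10.9). Steps were tested on simulated peak lists. A gene was counted as inside domains at 50% or more of its length, and 94.2 to 96.7% of the gene names deposited on domains matched the reference. Copy number of sequence was read from 100-base stretches of the reference, taken every 1 kb in loci and every 25 kb on autosomes and aligned back with minimap2 (2.31-r1302). Shares have 95% Wilson intervals. No p-value was computed, because each group had 1 library.

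Named were the 3 widest domains of each list, the 8 widest loci with a domain in all lists, the 5 widest loci of each genotype and age pattern, Dio2, Alb, chromosome 12 from 17 to 22 Mb, and gene classes by symbol (zinc finger, vomeronasal, olfactory, Mup, Cyp, Ugt, Serpin, Sult, Tdpoz, Skint, Pcdh, keratin, defensin, Speer, Klr, Hox, Prame and imprinted). Of the widest domains the text describes those not already covered by a locus. Members, lists and rules were chosen with earlier results of these data known, and the Obox and Prl classes, the split of receptor families, the chromosome 7 window from 20 to 25 Mb and the genes with adult domains and under 20% neonatal cover were added after their values were seen. Alternatives were width limits of 15 and 30 kb, peaks with −log10 p above 2 only, merging within 1000 bp, equal numbers of widest peaks per list, overlap by 1 bp in place of 50%, and inclusion of X.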

Additional observations from a re-analysis of the deposited data

Results flagged for a closer look

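The sign of the difference between Alb-D2KO and control changed with age for several measures of the domains. Each group had 1 library, so none of these differences was tested. For domains of 100 kb or more, the value in Alb-D2KO less that in control was 3, -8 and 0 over P1, P5 and adult. In the same order, the median width differed by 0.132, -0.151 and -0.479 kb. Among protein-coding genes, the share inside domains differed by 0.0673, -0.0817 and 0.135 percentage points. For zinc finger genes the differences were -0.957, -0.239 and 1.44 percentage points, and for vomeronasal receptor genes 2.13, -2.74 and 1.52. Olfactory receptor genes differed by -0.0887, 0.355 and 0 percentage points.

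Outside the autosomes, peaks of 20 kb or wider on the X chromosome numbered 13 in Alb-D2KO adult and 2 in control adult, whereas Alb-D2KO had fewer than control at P1 (59 against 63) and P5 (135 against 146). On Y there were 6 in Alb-D2KO P1 against 4 in control P1, 0 against 1 at P5, and 1 in Alb-D2KO adult against 0 in control adult. The sex of the pooled animals is not given in the labels, and these differences were not tested.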

How the results depend on the processing

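Of 189 values compared with alternatives, 74 stayed within their limit, 109 moved beyond it and 6 changed direction. For shares the limit was the Wilson interval for counting error. For numbers of domains or loci and for ratios of numbers it was a fixed factor in either direction, not a counting interval. That factor was wide for ratios: the Alb-D2KO over control number at P1 counted as unmoved although it was 1.10 with the p limit. No paired analysis was possible because only 1 library stood for each genotype at each age and no test was run. The lists give no read counts, so a difference in depth between libraries could not be measured, and both the number and the width of broad peaks can vary with it. The number of domains per list, 829 to 999 in the neonatal and 516 and 540 in the adult lists, was 2393 to 2860 and 1085 and 1056 when peaks within 1000 bp were merged, 1724 to 2165 and 1005 and 1080 at 15 kb, and at most 373 and then 207 and 205 at 30 kb. With a −log10 p above 2 the adult over neonatal number was 1.20 from control P1, 1.35 from control P5, 1.12 from Alb-D2KO P1 and 1.34 from Alb-D2KO P5, since this limit removed more neonatal than adult domains. The Alb-D2KO over control number in the adult was 0.990 at 30 kb and 0.973 with peaks merged within 1000 bp. Loci with a domain in all lists numbered 153 at 15 kb, 38 at 30 kb and 152 after merging. Alb-D2KO domains kept in control at P1 were 40.2% at 30 kb, 52.4% with the p limit, 42.0% merged, 43.4% with the 516 widest peaks of each list and 48.5% with overlap by 1 bp. The P5 values were 59.0% with the p limit, 41.4% merged and 48.2% by 1 bp, and the adult ones 55.9% at 15 kb, 64.9% at 30 kb, 56.4% merged and 65.0% by 1 bp. Control domains kept in Alb-D2KO at P1 were 54.8% at 30 kb, 64.3% with the p limit and 59.95% by 1 bp, at P5 58.7% with the p limit, 47.6% merged and 49.5% by 1 bp, and in the adult 60.3% at 15 kb, 56.4% merged and 68.6% by 1 bp. From P1 to P5, control kept 46.2% at 30 kb, 52.9% with the p limit and 55.97% by 1 bp, and Alb-D2KO 47.4% with the p limit and 48.6% by 1 bp. From neonatal to adult, in the order control P1, control P5, Alb-D2KO P1 and Alb-D2KO P5, shares were 24.0, 26.0, 20.1 and 28.3% at 30 kb, 34.5, 40.5, 31.7 and 45.7% with the p limit, 12.1, 14.0, 10.6 and 12.8% merged, 24.8, 25.2, 21.7 and 26.9% with the 516 widest, and 23.0, 22.7, 20.7 and 22.02% by 1 bp. At 15 kb they were 16.1% for control P1, 15.7% for control P5 and 16.1% for Alb-D2KO P5. Domains overlapping a zinc finger gene, in the order control P1, Alb-D2KO P1, control P5, Alb-D2KO P5, control adult and Alb-D2KO adult, were 4.23, 2.92, 3.29, 3.19, 9.55 and 9.17% at 15 kb, 10.9, 7.51, 10.7, 9.97, 25.1 and 22.9% at 30 kb, and 2.57, 2.24, 2.55, 2.33, 7.65 and 7.86% merged. With the p limit the neonatal ones were 11.4, 8.70, 13.7 and 12.2%. The remaining alternatives were chosen after seeing the data. Vomeronasal receptor genes inside domains were 49.2, 48.0, 39.8, 29.5, 6.38 and 9.73% merged, and 17.6, 21.9, 10.3 and 7.599% in the neonatal lists with the p limit. Zinc finger genes inside merged domains were 13.6% in both P1 lists and 14.4% in Alb-D2KO P5. Apart from the merging and the limits above, the causes of these changes were not tested.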
